A study of Mus musculus with 6 samples.

Results

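Transcripts of 42 genes for protein folding, the unfolded protein response, degradation and translocation in the endoplasmic reticulum (ER) were compared between central memory (CM) and effector/effector memory (E/EM) CD8+ T cells. The genes were chosen by symbol, and every probe set that the platform annotation assigns to 1 of them alone was taken. Of the 15964 genes named on the 3 array types, 40 belonged to this list, with 93 probe sets. Syvn1 and Sec61g had no probe set with their symbol alone. For 38 genes, the CM signal divided by the E/EM signal could be expressed as a log2 ratio, from 72 probe sets whose signals on the CM and the E/EM array both exceeded the floor. The floor is the level of bacterial control probe sets, and a probe set that exceeds it in 1 kind of cell only gives a bound, the signal over the floor. Negative ratios mean a lower signal in CM cells.

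Both kinds of cells came from female P14 mice of C57Bl/6 background, whose transgenic T cell receptor recognises a viral peptide. Spleen and lymph node cells of these mice received that peptide for 2 days. CM cells were then grown for 7 days in IL-15, and E/EM cells for 7 days in IL-2, and CM cells were then sorted for a high and E/EM cells for a low level of 1 surface marker. Cytokine and sort therefore differ together between the kinds and cannot be told apart. Each kind was measured on 1 array of each type (SubA, SubB and SubC), 6 arrays in all. There were no replicates of a kind on any array type, so no test was made, and a difference describes these arrays. In such bulk RNA, fewer cells with a transcript and less of it per cell cannot be told apart.

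Proteins bound for the cell surface or for secretion enter the ER through the translocon, fold with the help of chaperones and disulfide isomerases, and are sent to the proteasome if folding fails. Unfolded protein in the ER activates the sensors IRE1 (Ern1), ATF6 and PERK (Eif2ak3). IRE1 splices the Xbp1 transcript, which then yields an active transcription factor. ATF6 is cut to release one, and PERK slows translation while favouring ATF4. In CD8+ T cells the IRE1 and XBP1 pathway is known to be engaged during effector differentiation.

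The list lay lower in CM cells by a small amount. Of the 38 measured genes, 27 (71.1%) had a log2 ratio below 0, against 50.3% of all 10946 named genes with a ratio. The median of the 38 genes was -0.27, beside -0.0025 for all genes, and single genes lay between -1.60 and 0.67. By the 2-fold rule 3 genes (7.89%), Xbp1, Edem2 and Sdf2l1, were lower in CM cells, against 5.61% of all genes, and 0 were higher, against 2.73%. By a 1.5-fold rule 7 genes (18.4%) were lower, against 13.9% of all genes, and 1 was higher (2.63%), against 10.1%. The share past 2-fold was thus close to that of all genes, and most of the genes below 0 differed by less than 1.5-fold. Just inside the 1.5-fold limit was Pdia4, 1.53-fold lower, and just outside it Creld2, 1.44-fold lower.

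**Figure D1:**
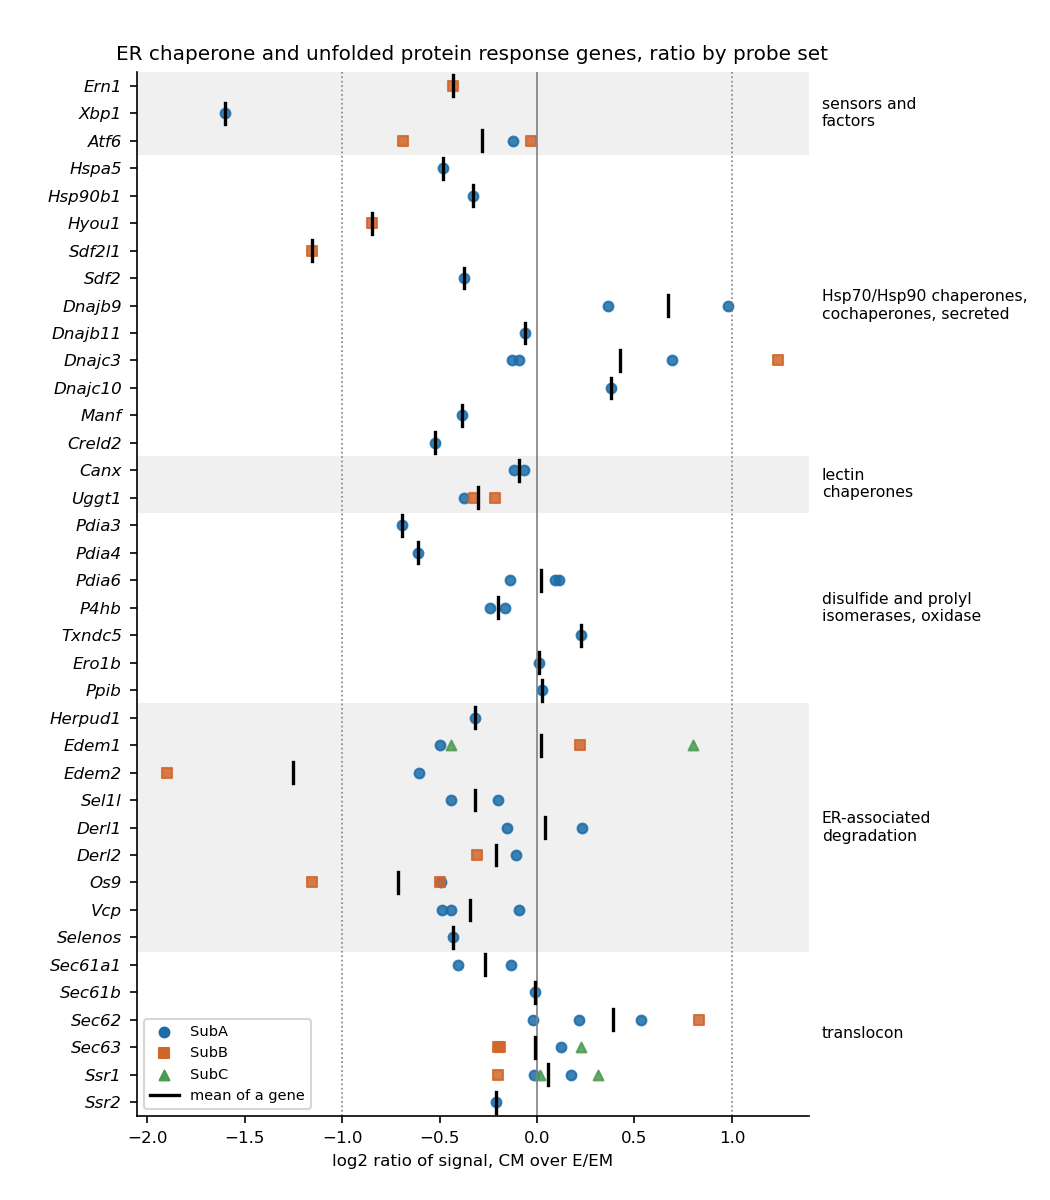
Log2 ratio (CM over E/EM) of every probe set measured in both kinds of cells (points, by array type) for the 38 measured genes, ordered by role, with the mean of each gene as a black bar and dotted lines at 2-fold. Most means lie left of 0, Xbp1 at -1.60 is the lowest, and Dnajb9 at 0.67 the highest.

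The array types carry different probe sets and gave different medians. The 50 measured probe sets on SubA had a median of -0.13, against 0.02 for all named probe sets there. On SubB the median of 17 probe sets was -0.31, against -0.0014, and on SubC that of 5 probe sets was 0.23, against 0.02. The 5 probe sets on SubC belong to Edem1, Sec63 and Ssr1. Of the 18 genes with at least 2 measured probe sets, 11 had the same sign on each of them, 10 of these below 0, and 7 had probe sets of both signs. The SD over a gene's probe sets had a median of 0.22 in these 18 genes and 0.32 over 4094 genes of the arrays, so a ratio of that size is no larger than the usual disagreement between probe sets of 1 gene.

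Of the sensors and transcription factors, Xbp1 stood apart. Its signal was 715.3 in CM cells and 2169.1 in E/EM cells on SubA, 3.03-fold lower in CM cells, with a log2 ratio of -1.60 from 1 probe set. This value is for total Xbp1 signal, and the files do not separate the spliced transcript. Ern1, whose product splices Xbp1, had signals of 411.7 in CM cells and 554.5 in E/EM cells on 1 SubB probe set, a log2 ratio of -0.43. Its other SubB probe set read 97.5 in CM cells and 22.6 in E/EM cells, under the floor of 88.1, which puts it at least 1.11-fold higher in CM cells. The 2 probe sets thus point in opposite directions, and Ern1 has no settled one.

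Atf6 had signals of 191.7 in CM cells and 208.8 in E/EM cells on SubA. On SubB its probe sets read 296.9 and 268.6 in CM cells, against 303.8 and 432.5 in E/EM cells. All 3 were lower in CM cells, but only the last by more than 1.5-fold, and the mean was -0.28 ± 0.35 (SD, 3 probe sets). The log2 ratio of Xbp1, the splicing target, was larger in size than any ratio of Ern1 or Atf6.

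**Figure D2:**
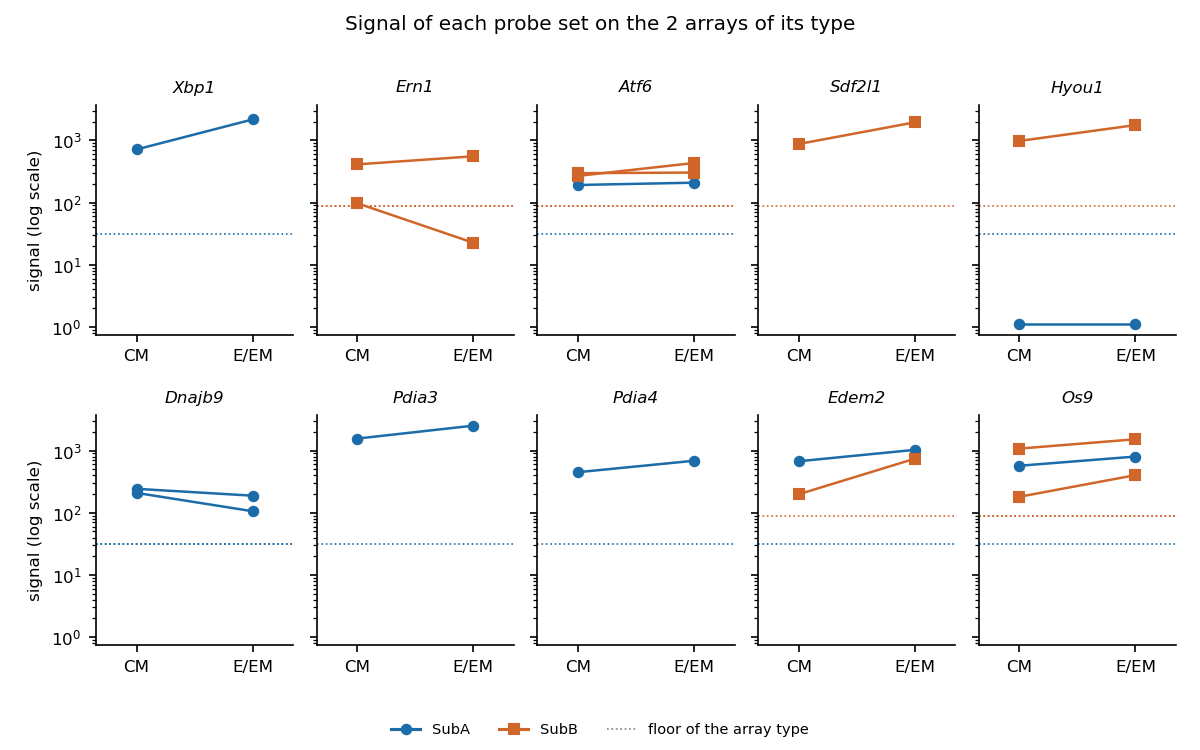
Signal of each probe set on the CM array (left) and the E/EM array (right) of its type, on a log scale, for Xbp1, Ern1, Atf6 and the genes whose mean differed by at least 1.5-fold, with the floor of the array type dotted. Every line climbs to the right for Xbp1, Atf6, Sdf2l1, Pdia3, Pdia4, Edem2 and Os9, both descend for Dnajb9, and Ern1 has 1 of each; Hyou1 climbs on SubB and has a SubA probe set at 1.1 on both arrays, under the floor.

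Among the ER chaperones and their cochaperones, Hspa5 and Hsp90b1 were lower in CM cells by less than 1.5-fold, each on 1 probe set. J-domain cochaperones were mixed, with Dnajb9 and Dnajc10 above 0, Dnajb11 near 0 and Dnajc3 without a settled direction. Of 11 measured genes of this role, 8 were below 0, against 50.3% of all genes, and the median of the role was -0.37. Hspa5, which encodes the central Hsp70 chaperone BiP, had signals of 3870.8 in CM cells and 5398.1 in E/EM cells, a log2 ratio of -0.48. Hsp90b1, the ER member of the Hsp90 family, had 3942.3 in CM cells and 4943.5 in E/EM cells, a ratio of -0.33. Both are strong signals and both differ by less than 1.5-fold.

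Hyou1, a large Hsp70-like protein that acts as a nucleotide exchange factor for BiP, had 980.1 in CM cells and 1762.3 in E/EM cells on SubB, 1.80-fold lower in CM cells with a log2 ratio of -0.85. Its SubA probe set was under the floor in both kinds. Sdf2l1, an ER-resident partner of BiP and its cochaperones, had 875.5 in CM cells and 1951.3 in E/EM cells, a log2 ratio of -1.16. Its paralogue Sdf2 had 103.0 in CM cells and 133.5 in E/EM cells, a ratio of -0.37, smaller in size than that of the stress-inducible copy. Creld2 and Manf, proteins secreted under ER stress, had log2 ratios of -0.52 and -0.39.

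The J-domain proteins were mixed. Dnajb9, the BiP cochaperone ERdj4, had the only mean of the 38 that was at least 1.5-fold higher in CM cells. Its 2 SubA probe sets read 208.8 and 242.9 in CM cells, against 105.9 and 188.4 in E/EM cells, and the mean was 0.67 ± 0.43 (SD, 2 probe sets). Read from the brightest probe set of each gene, Dnajb9 fell short of 1.5-fold at 0.37, while Sec62 and Edem1 passed it at 0.83 and 0.80. The name of that Sec62 probe set ends in a suffix for incomplete probe selection. Dnajc10, which reduces disulfides of proteins bound for degradation, had 0.38, and Dnajb11, a cochaperone that delivers unfolded chains to BiP, had -0.06. Dnajc3, the cochaperone p58IPK, had a mean of 0.43 ± 0.66 (SD, 4 probe sets) and no settled direction. Its probe sets with signals of 679.2 and 707.0 in CM cells, against 420.2 and 300.2 in E/EM cells, had log2 ratios of 0.69 and 1.24. The other 2, whose names end in suffixes for incomplete probe selection, read 925.6 and 316.0 in CM cells, against 987.0 and 345.5 in E/EM cells, with ratios of -0.09 and -0.13. Without probe sets of such suffixes the mean of Dnajc3 was 0.96.

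Promoters of several of these genes hold the ER stress element (ERSE), through which ATF6 and XBP1 are known to act. The element was searched as CCAAT and CCACG separated by 9 bases, on both strands, in RefSeq windows from 250 bases before to 50 bases after a start site (build GRCm38.p6). It was present in 39 of 32851 windows (0.119%). Of the 42 genes, 36 had a window, and 9 of them held the element. These were Hspa5, Hsp90b1, Dnajc3, Creld2, Canx, Pdia6, Ero1b and, without a ratio, Calr and Syvn1. The related ERSE-II, ATTGG and CCACG separated by 1 base, was in 12 windows (0.0365%), among them those of Herpud1 and Dnajb11. The core of the unfolded protein response element, TGACGTGG, was in 222 windows (0.676%), among them those of Txndc5 and Vcp. A match is a description of the letters, not of binding.

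The stretches below show the element of each measured gene with ERSE, and that of Herpud1 for ERSE-II, so that the shared letters can be set against unlike ratios. They are printed on the strand of the gene with 20 bases on either side, and capitals mark the element. For Creld2, Ero1b and the second Hsp90b1 stretch the element lies on the opposite strand and so reads CGTGG first. The Hspa5 stretch is chr2:34772005-34772063 (plus strand) and the Hsp90b1 stretches are chr10:86705618-86705676 and chr10:86705513-86705571 (minus strand). Creld2 is chr15:88819500-88819558 (plus), Canx chr11:50325780-50325838 (minus), Pdia6 chr12:17266471-17266529 (plus), Ero1b chr13:12565662-12565720 (plus), Dnajc3 chr14:118937807-118937865 (plus) and Herpud1 chr8:94386357-94386407 (plus).
Hspa5: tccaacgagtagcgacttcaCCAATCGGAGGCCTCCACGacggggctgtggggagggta
Hsp90b1, distal: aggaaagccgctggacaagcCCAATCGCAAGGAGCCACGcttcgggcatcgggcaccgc
Hsp90b1, proximal: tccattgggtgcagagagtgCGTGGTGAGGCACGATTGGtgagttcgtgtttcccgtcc
Creld2: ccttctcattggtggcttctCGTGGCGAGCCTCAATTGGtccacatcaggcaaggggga
Canx: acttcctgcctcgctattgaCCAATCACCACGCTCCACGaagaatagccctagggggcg
Pdia6: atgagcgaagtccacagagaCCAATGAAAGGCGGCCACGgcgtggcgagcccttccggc
Ero1b: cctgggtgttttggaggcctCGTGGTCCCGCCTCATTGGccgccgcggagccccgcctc
Dnajc3: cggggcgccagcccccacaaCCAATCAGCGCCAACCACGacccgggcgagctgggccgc
Herpud1: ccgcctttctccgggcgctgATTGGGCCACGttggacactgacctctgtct

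Genes of the list with this element had ratios on both sides of 0. The 7 measured genes with ERSE had a median log2 ratio of -0.09 and ran between -0.52 for Creld2 and 0.43 for Dnajc3, with 4 below 0. These 4, Hspa5, Hsp90b1, Creld2 and Canx, kept their sign in every alternative setting that gave a ratio. Dnajc3, Pdia6 at 0.02 and Ero1b at 0.01 did not. Hspa5, Hsp90b1 and Creld2 have 1 probe set each, whose ratio the choices of probe set and array type could not change. Canx, Pdia6 and Ero1b all lay close to 0, so the kept signs do not set the 4 genes apart. The 25 measured genes with a window but without ERSE had a median of -0.30, with 18 below 0. They ran between -1.60 and 0.67. Of all genes 50.3% were below 0. Genes with and without ERSE were not compared by a test. The windows of Xbp1, Sdf2l1 and Edem2, the genes past 2-fold, held none of the 3 motifs as spelled here.

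**Figure D3:**
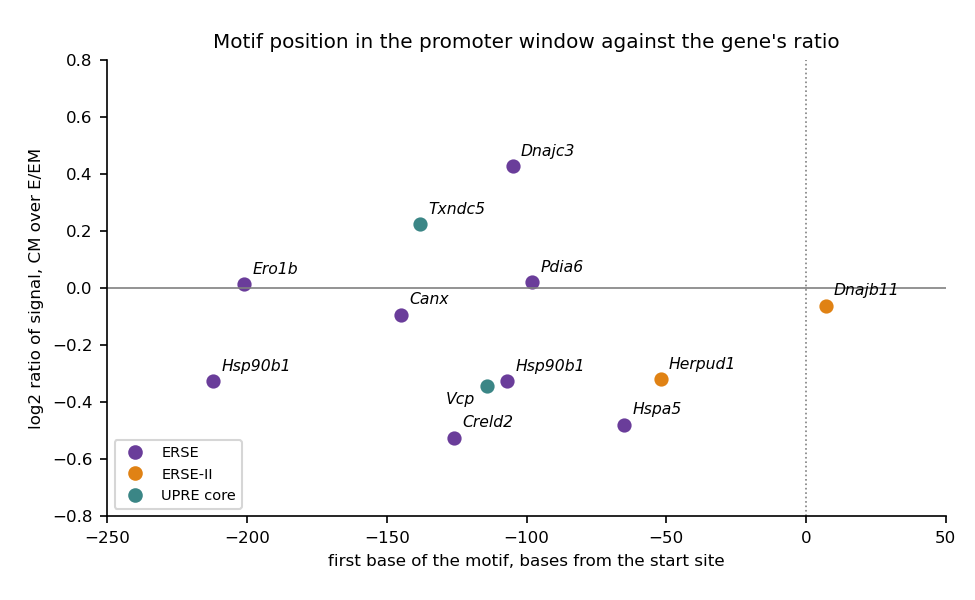
Position of the first base of each motif relative to the start site (in bases, the start site at 0) against the gene's log2 ratio (CM over E/EM), for the 11 measured genes with ERSE, ERSE-II or the core of the unfolded protein response element; Hsp90b1 appears at both of its ERSE positions. Points lie on both sides of 0, between -0.52 and 0.43.

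The lectin chaperones, which hold glycoproteins through their sugar chains, showed small differences. Calnexin (Canx) had a log2 ratio of -0.09 ± 0.04 (SD, 2 probe sets). The only probe set of calreticulin (Calr) read 11.4 in CM cells and 2.0 in E/EM cells, both under the floor of 31.3, so Calr was not measured. Uggt1, the glucosyltransferase that tags misfolded glycoproteins for another round of folding, read 260.3, 1898.0 and 435.2 in CM cells, against 337.1, 2376.2 and 505.1 in E/EM cells. All 3 probe sets were lower in CM cells, with a mean of -0.30 ± 0.08 (SD, 3 probe sets). A 4th Uggt1 probe set on SubB went the opposite way, 211.6 in CM cells against 73.4 in E/EM cells, at least 2.40-fold higher in CM cells.

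The disulfide isomerases were split. Pdia3 (ERp57), the isomerase that works with calnexin and calreticulin and takes part in loading MHC class I, had signals of 1560.8 in CM cells and 2518.6 in E/EM cells, a log2 ratio of -0.69. Pdia4 (ERp72) had 449.7 in CM cells and 686.4 in E/EM cells, a ratio of -0.61. Each rests on 1 SubA probe set. P4hb, which encodes protein disulfide isomerase itself, had -0.20 ± 0.05 (SD, 2 probe sets), and its weaker signals were 51.0 in CM cells and 57.2 in E/EM cells, under 2 times the floor. Pdia6 had 0.02 ± 0.14 (SD, 3 probe sets) and Txndc5, another member of the family, 0.22.

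The oxidase Ero1b, which recharges disulfide isomerases, had 221.9 in CM cells and 220.0 in E/EM cells on SubA, a log2 ratio of 0.01. That probe set carries a suffix for shared probes, and the SubC probe set read 55.5 in CM cells, under the floor, and 199.1 in E/EM cells, just above it. Ppib, the ER prolyl isomerase cyclophilin B, had 3143.0 in CM cells and 3091.4 in E/EM cells, a ratio of 0.02. Over the 7 genes of this role the median was 0.01, with 3 below 0.

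Genes of ER-associated degradation were mostly lower in CM cells, 7 of 9 measured, against 50.3% of all genes. The median of the role was -0.32, no larger in size than the usual disagreement between probe sets of 1 gene. Edem2, which trims mannose from misfolded glycoproteins, had 674.5 in CM cells and 1027.7 in E/EM cells on SubA, and 198.7 in CM cells and 740.3 in E/EM cells on SubB. The log2 ratios of these probe sets were -0.61 and -1.90, and their mean was -1.25 ± 0.91 (SD, 2 probe sets). Its place past 2-fold rests on the weaker SubB probe set, whose name also marks incomplete probe selection, and the SubA value alone lies under 2-fold. Os9, a lectin that hands such glycoproteins to the degradation ligase, read 570.8, 1077.2 and 181.1 in CM cells, against 802.3, 1522.3 and 402.9 in E/EM cells. All 3 probe sets were lower in CM cells, with a mean of -0.71 ± 0.38 (SD, 3 probe sets). Its place past 1.5-fold rests on the weakest of them, at -1.15, whose name marks shared probes, and without such probe sets the mean was -0.50.

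Edem1, the paralogue of Edem2, had no settled direction, with a mean of 0.02 ± 0.61 (SD, 4 probe sets). Its probe sets on SubA and SubC with the weaker signals read 328.0 and 223.5 in CM cells, against 463.2 and 303.7 in E/EM cells. Those with strong signals, on SubB and SubC, read 7125.3 and 14127.9 in CM cells, against 6106.6 and 8125.7 in E/EM cells, the opposite order.

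Sel1l, the adaptor of the ligase, had -0.32 ± 0.17 (SD, 2 probe sets), and Herpud1, a stress-induced scaffold of the same complex, also had -0.32. Selenos, a membrane selenoprotein that binds VCP, had -0.43. Vcp, the ATPase that pulls substrates out of the membrane, had -0.34 ± 0.22 (SD, 3 probe sets). Its brightest probe set, with 2460.0 in CM cells and 2626.4 in E/EM cells, gave only -0.09. The derlins Derl1 and Derl2, membrane proteins of the exit channel, had 0.04 ± 0.27 and -0.21 ± 0.14 (SD, 2 probe sets each).

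The translocon showed little difference. The 6 measured genes had a median of -0.01, and no mean reached 1.5-fold. Sec61a1, the channel subunit, had -0.27 ± 0.19 (SD, 2 probe sets), and the subunit Sec61b had 3492.4 in CM cells and 3522.6 in E/EM cells, a ratio of -0.01. Sec62, which serves post-translational entry, had 0.39 ± 0.37 (SD, 4 probe sets). Its brightest probe set, on SubB, read 3584.3 in CM cells and 2016.7 in E/EM cells, 1.78-fold higher in CM cells. The name of that probe set marks incomplete probe selection, and without such probe sets the mean of Sec62 was 0.37. Its partner Sec63, a J-domain protein, had -0.01 ± 0.22 (SD, 4 probe sets). Of the translocon-associated proteins, Ssr1 had 0.06 ± 0.19 (SD, 5 probe sets) and Ssr2 had -0.21. Both probe sets of Ssr4 were at or under the floor in both kinds of cells.

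The list of the PERK and ATF4 branch had a lower median than any role above, -1.14 over 11 measured genes. Of these, 7 were at least 2-fold lower in CM cells, against 5.61% of all genes, and 0 higher, against 2.73%. Sesn2, an inhibitor of mTORC1 signalling induced by ATF4, had signals of 620.0 in CM cells and 3343.6 in E/EM cells. These come from a SubC probe set whose name marks incomplete probe selection. Trib3, a pseudokinase, had 248.8 in CM cells and 1059.9 in E/EM cells. Chac1, which degrades glutathione, had 176.8 in CM cells and 692.9 in E/EM cells, and Ddit3, which encodes the transcription factor CHOP, had 184.9 in CM cells and 664.0 in E/EM cells. These 4 had log2 ratios between -2.43 and -1.84, each from 1 probe set. ATF4 is also induced by amino acid shortage and other stresses, and which signal was active was not measured.

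Atf4 and Eif2ak3, singled out after their values were seen, had ratios of -0.85 and -1.13. Eif2ak3, the PERK gene, read 277.6 in CM cells and 608.2 in E/EM cells on SubA, but its SubC probe set read 367.3 in CM cells and 58.9 in E/EM cells, at least 1.89-fold higher in CM cells. Its place among the genes of this list past 2-fold thus rests on the SubA probe set, and its direction is not settled. The phosphatase subunits Ppp1r15a and Ppp1r15b, which undo the translational block, were also singled out and had -0.61 and -0.24.

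**Figure D4:**
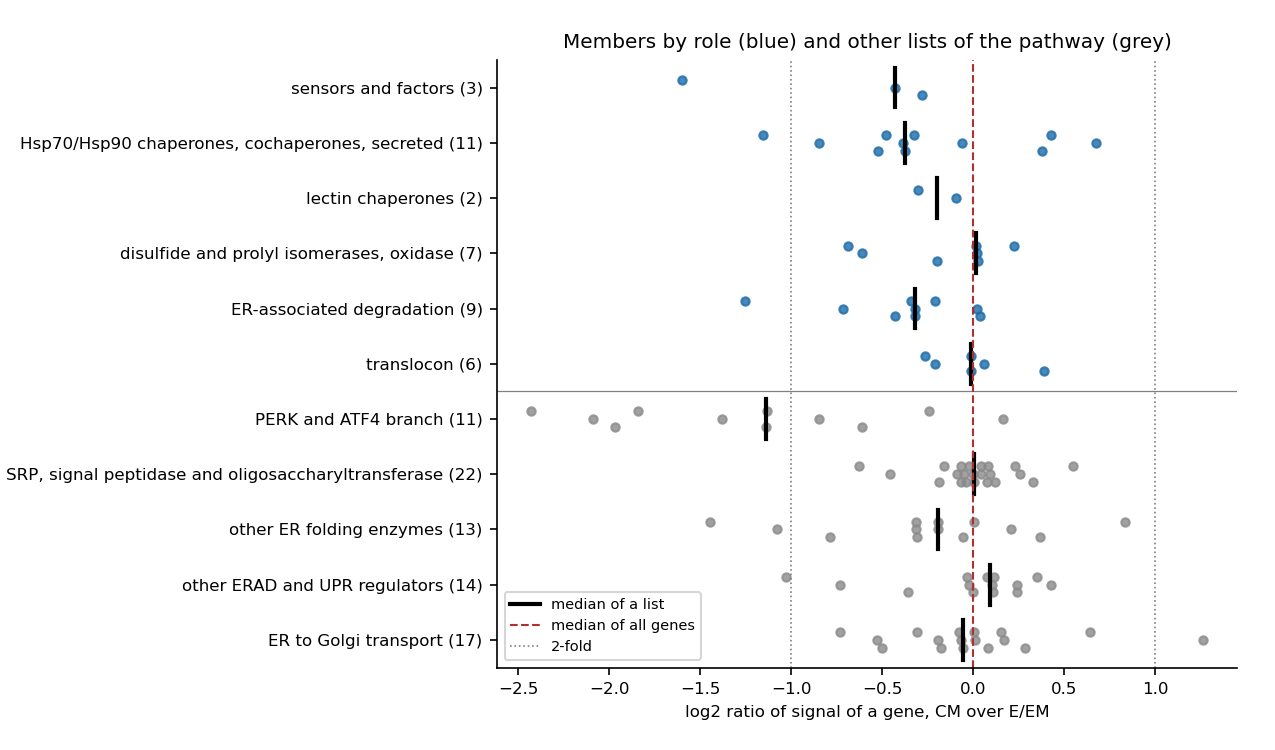
Log2 ratio (CM over E/EM) of each measured gene (points) by role for the ER genes (blue) and for other lists of the pathway (grey), with the number of genes in brackets, the list median as a black bar, the median of all genes dashed and 2-fold dotted. The PERK and ATF4 branch has the lowest median, -1.14, and the translocon and the signal peptidase list lie around 0.

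Other machinery of the ER was near the median gene, with a few exceptions. Of all genes, 5.61% were at least 2-fold lower in CM cells and 2.73% at least 2-fold higher. The 22 genes of the signal recognition particle, signal peptidase and oligosaccharyltransferase had a median of 0.00070, and 0 passed 2-fold in either direction. The largest of them were Ddost at -0.63 and Spcs2 at -0.46, against Spcs3 at 0.54 ± 0.53 (SD, 2 probe sets) and Sec11c at 0.33. Other ER folding enzymes had a median of -0.19 over 13 genes, 2 at least 2-fold lower in CM cells and 0 higher. Ero1a, the main oxidase of disulfide isomerases and also a hypoxia-induced gene, read 2144.0, 2198.1 and 841.8 in CM cells, against 4450.2, 5725.2 and 3146.4 in E/EM cells. All 3 of its probe sets were more than 2-fold lower in CM cells, with a mean of -1.45 ± 0.43 (SD, 3 probe sets). Pdia5 had -1.08 with a signal of only 37.7 in CM cells against 79.7 in E/EM cells, Fkbp11 had -0.79, and the glucosidase gene Mogs had 0.83 ± 0.26 (SD, 2 probe sets).

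Other degradation and stress regulators had a median of 0.09 over 14 genes, with 6 below 0. In that list 1 gene was at least 2-fold lower in CM cells, against 5.61% of all genes. This was Creb3l2, a membrane-bound transcription factor related to ATF6, with -1.03 ± 0.44 (SD, 3 probe sets). Derl3, Ubxn4 and Faf2 had -0.73, 0.42 and -0.36. Genes of transport from ER to Golgi had a median of -0.06 over 17 genes. Among them 0 were at least 2-fold lower, against 5.61% of all genes, and 1 was higher, against 2.73%. That was Sec24b, a cargo adaptor of the vesicle coat, with 652.7 in CM cells and 272.2 in E/EM cells on 1 probe set. The related adaptors Sec24d and Sec24a had -0.73 and 0.64, and Kdelr2, a receptor that returns chaperones to the ER, had -0.53. Kdelr3, another such receptor named after its values were seen, had no ratio and read 12.5 in CM cells and 67.8 in E/EM cells on SubA, at least 2.17-fold lower in CM cells.

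Defining transcripts of CD8+ T cells were present in both kinds. Cd8a had signals of 5882.7 in CM cells and 5133.8 in E/EM cells, and 9 of 10 T cell identity genes were measured. Because B cells turning into plasma cells carry much Xbp1 and ER chaperone RNA, their markers were read on the same arrays. Of 6 plasma cell markers 4 were above the floor in both kinds, and the summed signal of the list was 231.5 in CM cells against 262.8 in E/EM cells on SubA, and 163.6 against 321.8 on SubB. Most of the SubB sum came from Derl3, also listed above as a degradation regulator, with 113.5 in CM cells and 188.9 in E/EM cells. The rest came from 2 Mzb1 probe sets, with at most 90.5 in E/EM cells, about the floor. The immunoglobulin joining chain Jchain had 55.0 in CM cells and 131.6 in E/EM cells, a log2 ratio of -1.26. Derl3 and Sdc1 had -0.73 and -0.17, and Tnfrsf17 went the other way at 0.37. Mzb1 and Pou2af1 had no ratio. On 1 SubA probe set Pou2af1 read 54.6 in CM cells and 10.7 in E/EM cells, at least 1.75-fold higher in CM cells. Of 8 B cell markers 6 were measured, with a median log2 ratio of -0.16 and 4 of the 6 below 0. These were Cd79a at -0.51, Ms4a1 at -0.47, Pax5 at -0.32 and Ighm at -0.0051 ± 0.68 (SD, 3 probe sets). Cd79b and Blk were above 0, at 0.39 and 0.41, though another Blk probe set was above the floor in E/EM cells only. The sum of that list on SubA was 9478.7 in CM cells against 7371.1 in E/EM cells, most of it from 2 Ighm probe sets that were higher in CM cells. Of 11 macrophage and dendritic cell markers 9 were measured, with a median of -0.63. Of these, 6 were below 0, and H2-Ab1, H2-Eb1 and Cd68, at -1.29, -1.23 and -1.16, were at least 2-fold lower in CM cells. H2-Aa went the other way at 0.34, with 319.8 in CM cells and 252.9 in E/EM cells on SubC. Itgax was higher, with 130.3 in CM cells and 43.1 in E/EM cells. The sum of that list on SubA was 3164.2 in CM cells against 2923.3 in E/EM cells, most of it from Ctss with 2362.3 in CM cells and 1615.1 in E/EM cells, and Lyz2 and Adgre1 lay under the floor. Of the 2 helper T cell markers Cd4 was measured, at 1.42, and Zbtb7b was at least 9.74-fold lower in CM cells, where it lay under the floor. The part of these cell types in the ratios of Xbp1 and the other ER genes was not tested.

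The 2 arrays of a type had the same overall level, the mean without the lowest and highest 2% of values lying between 500.1 and 500.3 on the 6 arrays. SubA had a floor of 31.3, SubB one of 88.1 and SubC one of 194.3, and between 47.1% and 69.1% of the probe sets of an array lay above it, the fewest on SubC. RNA integrity, read as the ratio of 3' to 5' actin control signal, ranged between 1.06 and 1.17.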

How the data were processed

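Per the labels, total RNA of CM and E/EM cells was measured on 6 arrays, 1 for each kind of cell and array type. The tables hold intensities on a linear scale as deposited, and how the authors computed them is not stated in the labels or tables used here. The trimmed means of the 2 arrays of a table differed by at most 0.00858%, so the intensities were used as deposited. The number of arrays limits the precision.

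Symbols are those of the GEO platform annotation and were checked by Entrez identifier against RefSeq (GRCm38.p6). Srpra was matched as Srpr through its synonym. For each table the 90th percentile over 15 bacterial poly-A control probe sets was taken on each array, and the higher served as floor. Log2 ratios (CM over E/EM) were formed where both signals exceeded it, and a gene's value was the mean over its probe sets with their SD. With 1 array per kind and type there was no test, and genes were counted at 2-fold and 1.5-fold.

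The 42 genes, the 5 other pathway lists and the 5 marker lists were chosen with earlier results of these data known. All 42 are named. Signals on each array were fixed for Xbp1, Ern1, Atf6 and genes with a mean or bound of at least 1.5-fold, and those of other genes were added after their values were seen. Other pathway lists give up to 4 genes with the largest ratios. The normalization, centring, floor, probe set choice, array types and size rule were varied. The calculation was tested on simulated data. Python 3.11.15 and pandas 2.3.3 were used.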

Additional observations from a re-analysis of the deposited data

Results flagged for a closer look

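Sec61g, the gamma subunit of the translocon, entered no comparison because the 1 SubA probe set that names it also carries 4 other gene symbols. That probe set had a signal of 3318.5 in CM cells and 3990.6 in E/EM cells, far above the floor of 31.3, with a log2 ratio of -0.27. The signal stood out because it lies outside the measured genes and cannot be assigned to Sec61g alone.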

How the results depend on the processing

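Quantile normalization, centring, the floor doubled and SubA with SubB but without SubC left 3 genes at least 2-fold lower in CM cells, Xbp1, Sdf2l1 and Edem2, as did the floor halved. Edem2 dropped out, leaving 2, when the 60th percentile of all probe sets served as floor, when each gene was read from its brightest probe set, and without probe sets whose names mark shared or incomplete probe selection. On SubA alone 1 gene, Xbp1, was left, since Sdf2l1 has no SubA probe set. The 3-fold rule gave 1 lower gene and the 1.5-fold rule 7 lower and 1 higher. The median of the list lay between -0.28 and -0.21 over the alternatives, and between 66.7% and 76.3% of its measured genes were below 0, against 45.7% to 51.7% of all genes. Over the alternatives that gave a ratio, 31 of 38 genes kept their sign, and Dnajc3, Edem1, Ero1b, Pdia6, Sec63, Ssr1 and Uggt1 did not. For the 20 genes with 1 measured probe set, the choices of probe set and array type could not change the ratio. A kept sign therefore says little about those genes. Ern1 counts as kept only because its opposite probe set gave a bound and no ratio. Uggt1 had 0.15 with the floor halved, which brings in its 4th probe set, and Dnajc3 ran between -0.09 and 0.96. Weak signal limits SubC most. No paired analysis was possible because each kind has 1 array per type.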

Other observations

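The ERSE letters were also found in promoter windows of genes outside the list. Of 37 genes with the element 14 had a log2 ratio, and 7 of these were not among the 42 ER genes. Their median was 0.10, with 3 below 0, against 50.3% of all genes. Derl3, a derlin, had -0.73, and Acacb, an acetyl-CoA carboxylase, had -1.08. Alg12, a mannosyltransferase of the glycan that is attached to proteins in the ER, had 0.83, the highest of the 14. Spats2l had -0.35, Ptgdr2, a prostaglandin D2 receptor, 0.43, Adcy3, an adenylate cyclase, 0.10 and Pan2, a deadenylase subunit, 0.10 ± 0.27 (SD, 2 probe sets).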
